A study of Homo sapiens with 11 samples.

Results

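The arrays labelled replicate 3 were compared with the arrays labelled replicates 1 and 2 within each oligo treatment of Reh cells. The 9 treated arrays of the series, out of 11 in all, entered this comparison, 3 of them numbered replicate 3 and 6 of them numbered replicate 1 or 2. They were taken by the replicate number in the sample titles, and no measured value was used to choose them. Reh is a long-established human line from B-cell precursor leukaemia, positive for the ETV6-RUNX1 fusion. Every culture profiled, the scrambled controls included, came from cells infected with virus particles and kept in culture until miR-125b was stably expressed. The cells then received precursor oligos with Lipofectamine. The groups were miR-99a (3 arrays, 66 µM), miR-100 (3 arrays, 66 µM), a combination of both (3 arrays, 33 µM of each) and a scrambled control (2 arrays, 66 µM). A second dose followed after 72 h and the cells were harvested 48 h after that.

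Each treatment has 1 array of replicate 3, so the oligos are balanced between the sides compared and the contrast describes what the replicate number carried with it. The control group has replicates 1 and 2 only. The labels say that cells were incubated in triplicate and do not say whether a number stands for a culture, a transfection day, an RNA preparation or an array run. These cannot be told apart here, and p-values measure only the spread between these arrays, which may be technical. Values are log2 expression as deposited, array medians lie between 5.95 and 5.984, and any pair of arrays correlated at 0.989 to 0.998 over genes. Each of 19775 genes was read from its brightest probe set that lists a single gene.

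The oligos given to both sides of the contrast are precursors of a pair of close relatives, and the stable microRNA belongs to another seed family. Their mature sequences in RefSeq (GRCh38.p14) are shown 5′ to 3′ with the seed, bases 2 to 8, in capitals, because the oligos are what the comparison holds constant.
hsa-miR-99a-5p: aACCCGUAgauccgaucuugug
hsa-miR-100-5p: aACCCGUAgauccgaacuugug
hsa-miR-125b-5p: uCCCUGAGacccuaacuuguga
The first lies at chr21:16539101-16539122 on the plus strand and the next at chr11:122152275-122152296 on the minus strand. They differ at 1 of 22 bases, U16A counted from the 5′ end of miR-99a. Their seeds are the same.

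Several of the processes described below work through large complexes. Oxidative phosphorylation is carried out by 5 complexes of the inner mitochondrial membrane. Most of them join a catalytic core to small accessory proteins, while complex II has only 4 subunits. Ribosomes, proteasomes, spliceosomes, kinetochores and nuclear pores are likewise mixtures of large scaffolds or enzymes and small structural subunits. Proliferating leukaemia cells make all of them, and they express the mitotic genes as cells pass through G2 and M phase.

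Of the 19775 genes, 3382 were higher in replicate 3 (17.1%) and 2412 were lower (12.2%), by limma with an adjusted p under 0.05. In all 29.3% of genes were called. Differences were mostly small: the median was 0.276 among genes called higher and -0.358 among genes called lower, on the log2 scale. A total of 145 genes rose by over 0.5 and 687 fell by over 0.5, so the larger changes were mostly falls. GPR160 alone among called genes passed 1 on the log2 scale, and it fell. All 3 replicate 3 arrays lay outside the range of the other 6 for 2944 genes on the high side (14.9%) and 2177 on the low side (11%), and 2678 and 1911 of these were also called.

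Replicates 1 and 2 stood close to each other. Replicate 2 minus replicate 1 gave 31 calls (0.157%), of which 11 were higher (0.0556%) and 20 lower (0.101%), against 5811 (29.4%) for replicate 3 minus replicate 1 and 4501 (22.8%) for replicate 3 minus replicate 2. The SD of the differences over genes was 0.083 between replicates 1 and 2 and 0.211 between replicate 3 and the mean of both.

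The shift was alike in the 3 treatments, which share no arrays. Replicate 3 minus the mean of replicates 1 and 2 correlated across the 19775 genes at 0.694 between miR-99a and miR-100, 0.816 between miR-99a and the combination, and 0.668 between miR-100 and the combination. Genes are not independent replicates and the arrays share 1 normalization, so these are descriptions. Over all genes, 9867 of 19775 (49.9%) had a shift of the same sign in all 3 treatments. Among the called genes the figures were 3334 of 3382 higher and 2298 of 2412 lower, which the call on the mean of the same treatments largely fixes.

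**Figure D1:**
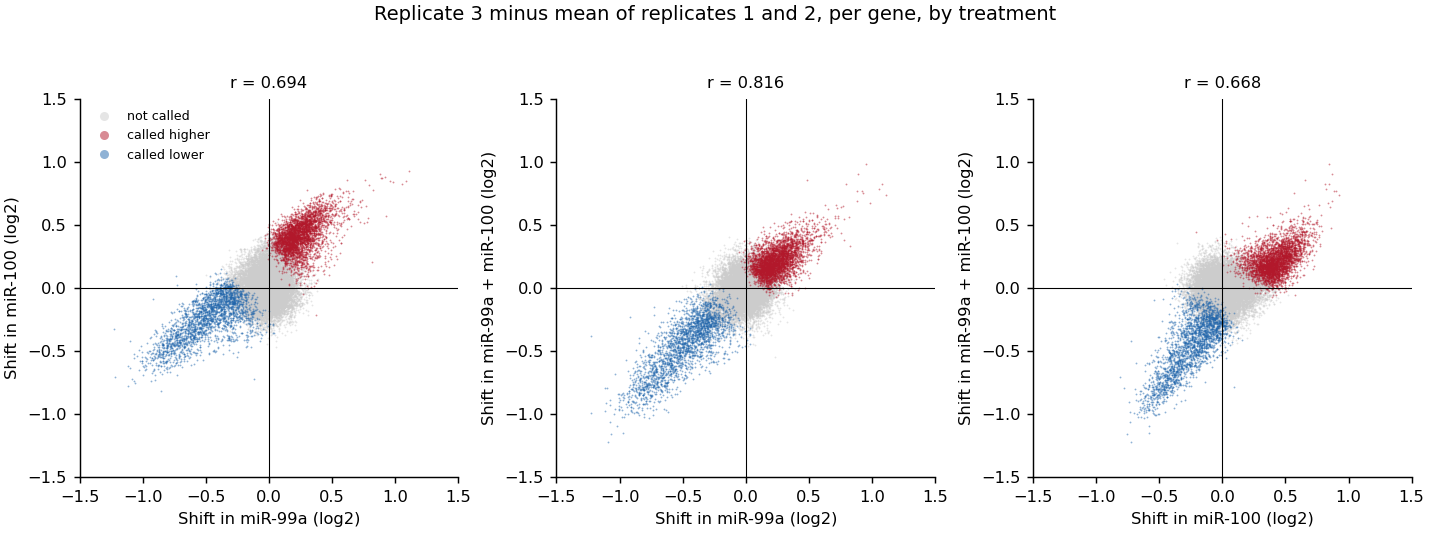
Each dot is 1 of 19775 genes and each axis is replicate 3 minus the mean of replicates 1 and 2 within 1 treatment, in log2 units. Red and blue dots are genes called higher and lower over all 3 treatments, so their side is fixed by the calls, and the grey dots are the genes that were not called. The cloud runs along the rising diagonal in each panel, and in the panels with miR-100 it sits toward higher miR-100 shifts.

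The balance of rises and falls differed for miR-100. Genes called higher had a median shift of 0.413 in miR-100, against 0.233 in miR-99a and 0.211 in the combination. Genes called lower had a median shift of -0.228 in miR-100, against -0.462 and -0.42. No gene passed the test that the shift differed between treatments (limma F test, 0 of 19775, lowest adjusted p 0.566), while 1706 genes (8.63%) had an unadjusted p under 0.05. Without the miR-100 replicate 3 array, 1967 genes were called higher and 2647 lower. The counts were 2921 and 2278 without miR-100 replicate 1, and 3166 and 2571 without miR-100 replicate 2.

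The largest rises included several very large structural proteins and 4 non-coding RNAs. RUNX1-IT1, a non-coding RNA from within the RUNX1 locus (chr21:35037925-35039426, GRCh38.p14), read 8.34 in miR-99a, 8.19 in miR-100 and 8.28 in the combination in replicate 3, and 7.28, 7.35 and 7.40 as the lowest, median and highest of the other 6 treated arrays. It rose by 0.93 ± 0.07 (SE), or 1.9-fold, and was among the most even of these genes, with replicates 2 and 1 differing by -0.03. AKAP9, a giant scaffold of the Golgi and centrosome (chr7:91940862-92110673), read 9.18, 8.91 and 8.81 in replicate 3 against 7.81 to 8.33, a rise of 0.92 ± 0.08. CENPE, the kinesin that links chromosomes to spindle microtubules (chr4:103105811-103198343), read 9.12, 8.86 and 8.78 against 7.72, 8.0 and 8.35, a rise of 0.92 ± 0.09. The 3 replicate 3 arrays stood above all other treated arrays, as the choice of these genes required.

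HELQ, a DNA repair helicase, rose by 0.89 ± 0.07. SYNE2, a giant nuclear envelope protein that ties the nucleus to actin, rose by 0.89 ± 0.08, ASPM, a spindle pole protein, by 0.86 ± 0.09, GOLGB1, the Golgi tether giantin, by 0.83 ± 0.07, and CENPF, a large kinetochore protein, by 0.81 ± 0.08. The non-coding LOC285097, TNS1-AS1 and LINC00342 rose by 0.85, 0.81 and 0.75, and RASEF, a Rab-family GTPase, by 0.75. TNS1, the gene that TNS1-AS1 is named after, rose by 0.19 and was looked up after the values were seen.

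For some of these genes the other arrays spread as well. Replicate 2 was below replicate 1 by 0.42 for CENPE (adjusted p = 0.000244), 0.43 for ASPM, 0.40 for CENPF, 0.34 for AKAP9 and 0.32 for SYNE2, all of them called. The control arrays followed the same order, with CENPE at 8.75 in control replicate 1 and 8.15 in control replicate 2. For CENPE the first control array thus came close to the replicate 3 arrays although it carries another number.

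The largest falls were led by a receptor, a membrane protein of the secretory pathway and a transcription factor. GPR160, an orphan G protein-coupled receptor (chr3:170037995-170085392), read 8.98, 9.23 and 8.94 in replicate 3 and 9.89, 10.06 and 10.21 as the lowest, median and highest of the others. Its difference was -1.01 ± 0.07, a 2.01-fold fall. TMEM167A, a small membrane protein of that pathway (chr5:83052846-83077394), read 9.63, 9.85 and 9.64 against 10.59 to 10.82, a difference of -0.99 ± 0.07. JUND, an AP-1 transcription factor encoded by a gene without introns (chr19:18279694-18281622), read 9.86, 10.1 and 10.02 against 10.79 to 11.13, a difference of -0.97 ± 0.07. In all 3 genes the miR-100 array of replicate 3 stood highest of the replicate 3 arrays.

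The other 9 of the 12 largest falls lay between -0.96 and -0.87. They were MED21, a small Mediator subunit, ATP6V0E1, a small subunit of the vacuolar proton pump, DNAJB9, a chaperone of the endoplasmic reticulum, MCTS1, a translation re-initiation factor, BBLN, STMP1, a micropeptide of mitochondria, RPS27L, a relative of the ribosomal protein RPS27, PFDN4, a prefoldin subunit, and CHPT1, a phosphatidylcholine synthesis enzyme. RPS27L read at most 11.25 in replicate 3 and at least 11.87 in the others. For MED21 the 6 other treated arrays ran from 9.42 to 9.73, with the lowest in miR-100 replicate 2, and replicate 3 stood at 8.63 to 8.83.

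**Figure D2:**
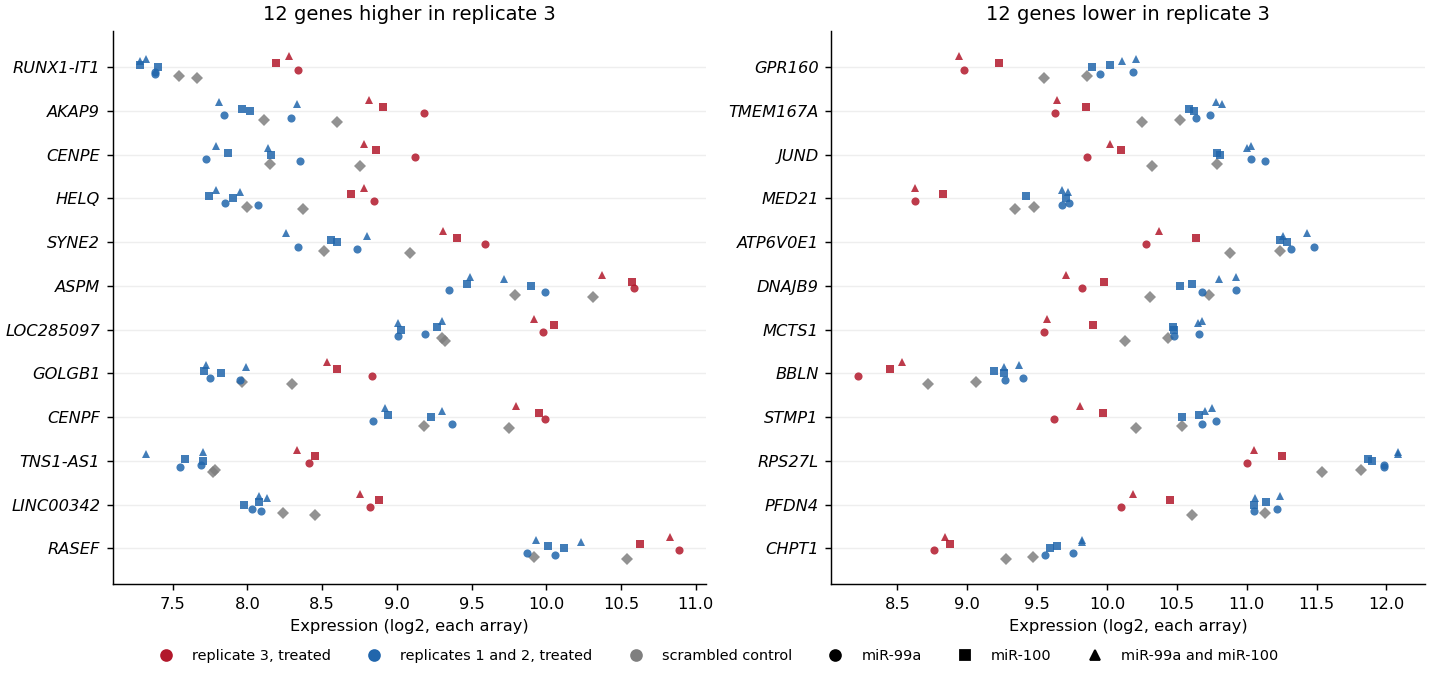
Points are log2 expression of single arrays for the 12 genes with the largest called rise and the 12 with the largest called fall by the rule for named genes, coloured by replicate and shaped by treatment. The 3 red points of replicate 3 stand apart from the 6 blue points in every row by the choice of genes, and the grey control points fall between them or among the blue points in most rows.

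The control arrays, which the choice of genes did not use, mostly lay between the sides. The mean of the control arrays fell between the mean of replicate 3 and the mean of the other treated arrays for 90.9% of genes called higher and 81.8% of genes called lower. These genes were called for a gap between the same treated means, which leaves room for values between them. No share over all genes is given beside them. The controls also received another oligo, so their distance from treated replicates 1 and 2 includes any difference between oligos. Relative to treated replicates 1 and 2, the genes called higher had a median of 0.129 in control replicate 1 and 0.156 in control replicate 2. The genes called lower had a median of -0.164 in control replicate 1 and -0.037 in control replicate 2. For CHPT1 both control arrays, at 9.28 and 9.47, read below the lowest of the 6 other treated arrays, 9.56.

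The share of genes called depended on their level, and the counts of the gene lists stand beside these shares. Below a mean of 6, 0.846% of genes were higher and 1.6% lower. At a mean of 6 to 8, 19.7% of genes were higher and 10.8% lower. The shares were 42.3% and 22.2% at 8 to 10, 27.2% and 44.9% at 10 to 12, and 7.35% and 57.1% at 12 and above. A list is set beside the range that holds its median level.

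Most oxidative phosphorylation messages fell, and the few that rose included catalytic and accessory subunits. Of 71 nuclear-encoded subunits measured, 54 were lower, 10 higher and 7 were not called, with a median difference of -0.551 against 0.001 over all genes and 12.2% of genes called lower (44.9% at a mean of 10 to 12 and 57.1% above, where the median levels of the 5 complexes lie). The medians of the complexes depended on the processing: with the mean of all probe sets of a gene, complex II went from -0.635 to -0.364 and complex V from -0.53 to -0.316, and with quantile normalization complex III went from -0.511 to -0.337. In complex I, 24 of 33 subunits fell. NDUFB5, an accessory subunit, read 10.02, 10.17 and 10.02 in replicate 3 against 10.75 to 11.01 in the others, a difference of -0.84 ± 0.07. NDUFA3, NDUFB1 and NDUFA5, also accessory subunits, fell by 0.79, 0.76 and 0.75.

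In complex I, 5 subunits went the other way. NDUFS1, the largest subunit, which carries iron-sulphur clusters, rose by 0.35, NDUFV1, the site of NADH oxidation, by 0.30, and NDUFS7 by 0.32. The accessory subunits NDUFA10 and NDUFB10 rose by 0.40 and 0.37. All 5 were chosen after their values were seen, as were the other rising subunits named in this paragraph. NDUFS1 read 9.64, 9.70 and 9.50 in replicate 3 and 9.12 to 9.40 in the others, with no overlap. In complex II the membrane anchors SDHD and SDHC fell by 0.77 and 0.63 while SDHA, the flavoprotein that oxidises succinate, rose by 0.31. In complex III the small subunits UQCRB, UQCR11, UQCRQ and UQCR10 fell by 0.71, 0.71, 0.60 and 0.51, and the large core proteins UQCRC1 and UQCRC2 rose by 0.21 and 0.29. In complex V the catalytic ATP5F1A and ATP5F1B rose by 0.29 and 0.27 while the small ATP5MK, ATP5F1E and ATP5MJ fell by 0.75, 0.74 and 0.74. Neighbouring parts of the same enzyme thus moved in opposite directions. Other core subunits did not rise. NDUFV2 (-0.52), ATP5F1C (-0.19) and ATP5F1D (-0.34) were called lower, and NDUFS3 (-0.08) and CYC1 (-0.01) were not called.

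Complex IV had no nuclear-encoded riser, with 10 of 11 subunits lower and COX4I1, at -0.13, not called. COX7A2 read 11.54, 11.73 and 11.63 in replicate 3 against 12.28, 12.38 and 12.55 in the others, a difference of -0.77 ± 0.07, and COXFA4 had the same difference. Assembly factors were mixed, 18 lower and 9 higher of 41, beside 22.2% and 42.3% of genes with a mean of 8 to 10. Among the falls were COX16 at -0.86, SDHAF3 at -0.79 and CMC1 at -0.76. Of 7 mitochondrially encoded messages, 6 were lower and none higher, with ND2, a core complex I subunit, at -0.47 and ND4 at -0.35. For 3 of the 7 the arrays did not overlap. The list median was -0.257, and -0.176 under quantile normalization. For all genes with a mean of 12 or more it was -0.233, with 57.1% lower. The median shift was -0.123 in miR-99a, -0.346 in miR-100 and -0.439 in the combination. COX3 and ATP6 were not called without miR-100 replicate 3 (-0.27 and -0.21), nor was ATP6 under quantile normalization (-0.06). ND2 read 13.19, 13.06 and 13.19 in replicate 3 and 13.49 to 13.75 in the others.

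The tricarboxylic acid cycle, which feeds electrons to these complexes, showed no called fall. Of 15 enzyme genes measured, 9 rose and 6 were not called, with a median of 0.235. Beside them, 42.3% of genes with a mean of 8 to 10 were higher and 22.2% lower. DLST, a subunit of the 2-oxoglutarate dehydrogenase complex, read 9.33, 9.39 and 9.19 in replicate 3 against 8.70 to 9.01, a rise of 0.43 ± 0.07. SUCLG1, PDHA1 and SUCLA2 rose by 0.37, 0.35 and 0.34. Mitochondrial import genes were mixed, with 12 lower and 7 higher of 23, beside the same 22.2% and 42.3%. The falls there included the small TOMM5 (-0.73), TIMM8B (-0.65), TIMM17A (-0.64) and DNAJC19 (-0.56).

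**Figure D3:**
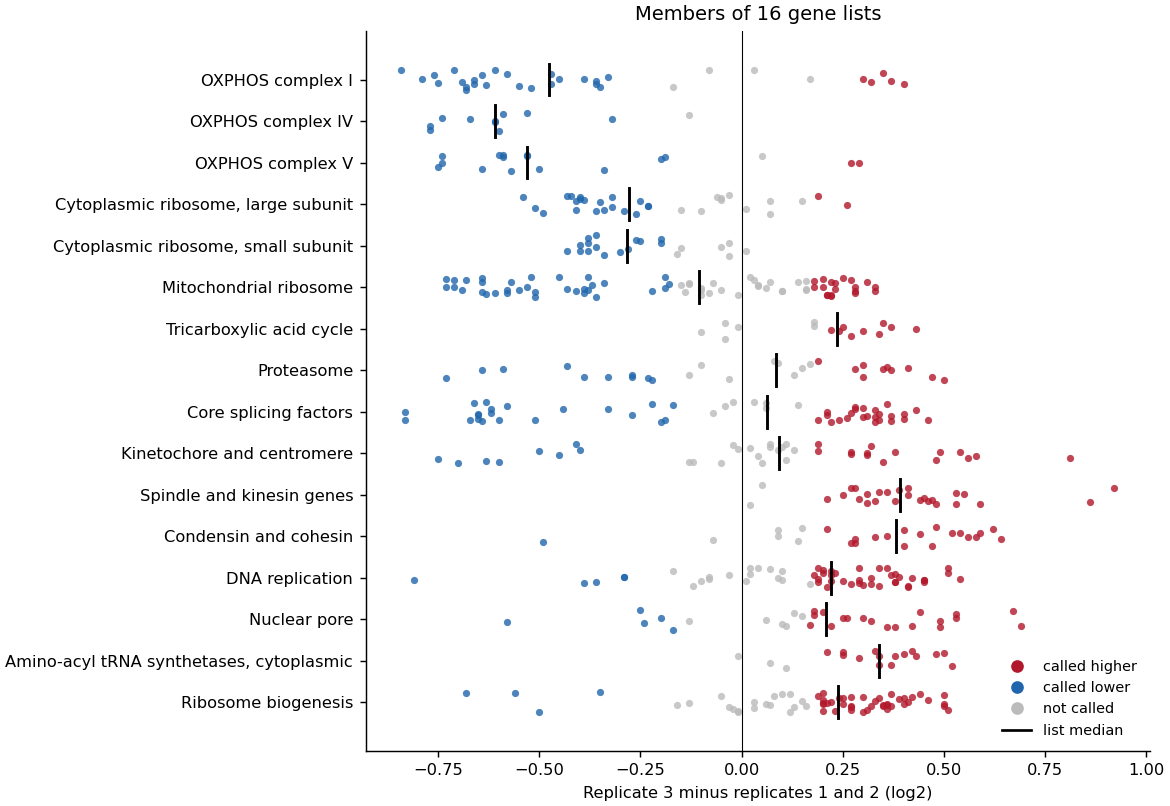
Each point is a gene, placed by replicate 3 minus replicates 1 and 2 in log2 units, in rows of 16 gene lists, with red for called higher, blue for called lower, grey for not called and a black bar at the list median. Points fall on both sides of 0 in the kinetochore, splicing, proteasome and mitochondrial ribosome rows, while the spindle row has no blue point and the complex IV row no red one.

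Ribosomal protein messages, among the brightest on the arrays, were often lower. Among 53 cytoplasmic ribosomal proteins, 35 were lower, 2 higher and 16 not called, with a median of -0.282 that became -0.085 for the large and -0.09 for the small subunit under quantile normalization. For all genes with a mean of 12 or more the median was -0.233 and 57.1% were lower. RPL34 read 13.29, 13.25 and 13.34 in replicate 3 and 13.68 to 14.01 in the others, a difference of -0.54 ± 0.07, and RPL38 and RPL35A differed by -0.51 and -0.49. In the small subunit RPS25 was at -0.43 and RPS21 and RPS29 at -0.40, though RPS29 was at -0.07 and not called with the mean of its probe sets. RPL3, of the large subunit, rose by 0.26, and RPL19 by 0.19; both were chosen after their values were seen. These messages have many processed pseudogenes, and probe sets may read both.

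Mitochondrial ribosomal proteins split, with 33 lower and 19 higher of 75. At a mean of 8 to 10, the range of this list and of ribosome biogenesis, 22.2% of all genes were lower and 42.3% higher. MRPL33 and MRPS18C fell by 0.73, and MRPL52 and MRPS33 by 0.71. MRPS33 ran from 8.05 to 8.25 in replicate 3 and from 8.68 to 8.92 in the others. MRPS27 and MRPS9 rose by 0.33, chosen after their values were seen. Of 62 genes of ribosome biogenesis, which act in the nucleolus and not in the finished ribosome, 40 rose and 4 fell, with LYAR at 0.51 and NOC3L at 0.50. The falls there included NOP10 (-0.68) and GAR1 (-0.56), small proteins of the H/ACA particle that guides pseudouridylation.

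Mitotic genes rose for spindle and condensin components. Of 27 spindle and kinesin genes, 25 rose and none fell, with a median of 0.391. Over all genes 17.1% were called higher. At a mean of 8 to 10, where this list and that of condensin and cohesin have their median levels, the share was 42.3%. KIF15, a spindle kinesin, read 8.10, 8.19 and 8.02 in replicate 3 and 7.37, 7.55 and 7.63 in the others, a rise of 0.59 ± 0.07, and DLGAP5, a spindle assembly factor, rose by 0.55. Of 24 condensin and cohesin genes 18 rose, among them the ATPases SMC3 by 0.64 and SMC2 by 0.58, NCAPG, a condensin subunit, by 0.62 and NIPBL, the cohesin loader, by 0.59. The only fall there was PTTG1, the small separase inhibitor securin, at -0.49. SMC3 read 10.89, 10.79 and 10.73 in replicate 3 and 10.11 to 10.2 in the others. TOP2A, which untangles chromosomes, rose by 0.52, and MKI67, the proliferation marker, by 0.40. In bulk samples a larger share of cells in a phase and more message per cell cannot be told apart, nor can fewer cells of a type and less RNA per cell.

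Of 38 kinetochore genes measured, 15 rose and 8 fell, beside 42.3% and 22.2% of all genes with a mean of 8 to 10. Besides CENPF, KNTC1, SGO2 and KNL1 rose by 0.58, 0.56 and 0.54, chosen after their values were seen, and SKA2, SPC25 and MAD2L1 fell by 0.75, 0.70 and 0.63. ZWINT, also chosen after its value was seen, rose by 0.27. SPC25 and NDC80 belong to 1 complex that binds microtubules, and SPC25 read 9.23, 9.4 and 9.19 in replicate 3 against 9.92 to 10.03, while NDC80, NUF2 and SPC24, the other members of that complex, chosen after their values were seen, rose by 0.49, 0.31 and 0.31. Among 20 mitotic cyclins, kinases and phosphatases 9 rose and 3 fell, beside the same 42.3% and 22.2%. CDK1, the kinase that drives entry into mitosis, read 11.47, 11.57 and 11.45 against 11.96, 12.11 and 12.22, a difference of -0.61 ± 0.07. Its partner CCNB1 rose by 0.38, and the kinases BUB1, MASTL and AURKA by 0.40, 0.40 and 0.39; BUB1 was at 0.12 and not called with the mean of its probe sets. A cyclin and its kinase thus differed in sign.

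The promoters of mitotic genes often carry CCAAT boxes, bound by NF-Y, and a CHR element, here searched as TTTGAA. In the 250 bases before the start (RefSeq, GRCh38.p14, both strands), CCAAT was found in 57 of 91 mitotic, spindle, kinetochore, condensin and cohesin genes (62.6%) and TTTGAA in 31 (34.1%), against 36.8% and 8.92% of 4709 genes with a mean of 8 or more. The windows just before the start of the 3 mitotic genes with the largest rise are shown 5′ to 3′ on the strand of the gene, with matches to either motif on either strand in capitals.
CENPE: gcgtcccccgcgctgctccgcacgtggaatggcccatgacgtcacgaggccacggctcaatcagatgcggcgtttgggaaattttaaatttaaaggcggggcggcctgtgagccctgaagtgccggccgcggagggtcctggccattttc
ASPM: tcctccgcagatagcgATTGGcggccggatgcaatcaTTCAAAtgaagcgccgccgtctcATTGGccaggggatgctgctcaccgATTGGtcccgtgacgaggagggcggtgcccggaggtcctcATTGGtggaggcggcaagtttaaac
CENPF: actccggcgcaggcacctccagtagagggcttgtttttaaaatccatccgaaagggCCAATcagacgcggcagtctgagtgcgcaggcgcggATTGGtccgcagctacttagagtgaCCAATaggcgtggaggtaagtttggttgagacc
They lie at chr4:103198344-103198493 (minus strand), chr1:197146670-197146819 (minus strand) and chr1:214603045-214603194 (plus strand). ASPM holds 4 copies of CCAAT and 1 of TTTGAA, CENPF 3 copies of CCAAT, and neither string is in this window of CENPE.

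The same strings did not set the genes called higher apart from those called lower. Among genes with a mean of 8 or more, CCAAT was in 37.8% of promoters of genes called higher and 37.1% of those called lower, and TTTGAA in 9.69% and 9.29%. GGGCGG, the GC box, was in 69.3% and 68.8%, CCGGAAG, an ETS site, in 20.9% and 18.2%, TGCGCA, the core of the NRF1 site, in 13.6% and 15.3%, and ATGGCGG, a YY1 site, in 4.43% and 5.5%. TGCGCA was in 15 of 61 promoters of oxidative phosphorylation subunits (24.6%), against 13.7% of the 4709 genes.

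DNA replication genes mostly rose, 36 of 56, with 5 falls, beside 42.3% of genes higher and 22.2% lower at a mean of 8 to 10. RRM1, the large subunit of ribonucleotide reductase, read 11.39, 11.46 and 11.25 in replicate 3 against 10.72 to 10.96, a rise of 0.54 ± 0.07. CDC45, a helicase factor, and RFC1, the large subunit of the clamp loader, both rose by 0.51. RPA3, the smallest subunit of the single-strand binding protein, had the largest fall of the list, with 10.42, 10.79 and 10.66 against 11.31 to 11.54, a difference of -0.81 ± 0.07. Its partners RPA1 and RPA2, chosen after their values were seen, rose by 0.41 and 0.32. Replication-dependent histones, encoded by short genes without introns, were lower for 16 and higher for 3 of 38, with H2AC14 at -0.44 and H4C11 at -0.42. Most histone probe sets were dim, with a median level of 6.02, and near-identical copies may share them. At a mean of 6 to 8, which holds that level, 10.8% of genes were lower and 19.7% higher.

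Of 37 nucleosome remodellers 20 rose, 16 were not called and CHD2, at -0.32, was the only fall, beside 42.3% of genes higher and 22.2% lower at a mean of 8 to 10. BPTF, the large subunit of the NURF remodeller, read 10.27, 10.44 and 10.27 against 9.7 to 9.89, a rise of 0.54 ± 0.07, and ATRX also rose by 0.54. Among 49 histone methyltransferases and demethylases 24 rose, 3 fell and 22 were not called, with JMJD1C at 0.66, SETD2 at 0.43 and KDM5A at 0.41. The falls were SUV39H2 at -0.42, NSD1, a large protein, at -0.37 and KMT5A at -0.23. Of 30 nuclear pore genes 19 rose and 5 fell. TPR, the filament protein of the nuclear basket, read 10.94, 10.77 and 10.85 against a median of 10.12 and a highest value of 10.4, a rise of 0.69 ± 0.07, and the outer scaffold NUP107 rose by 0.53, whereas NUP37, a small subunit of the same scaffold, differed by -0.58. RANBP2 rose by 0.67, but it has near-identical copies elsewhere in the genome.

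Of 52 core splicing factors 24 rose and 21 fell, beside 42.3% and 22.2% of genes with a mean of 8 to 10. The falls were led by LSM5 and LSM3, small ring proteins of the U6 particle, each at -0.83 ± 0.07. LSM3 read 10.52, 10.75 and 10.65 in replicate 3 against 11.32, 11.49 and 11.54. LSM6 and SF3B6 fell by 0.67 and 0.66. The rises included SLU7 (0.46), SF3B1 (0.43), the large scaffold of the U2 particle, and PRPF8 (0.28), the centre of the spliceosome, chosen after their values were seen. SF3B1 and SF3B6 sit in 1 particle and moved in opposite directions. Among 42 SR and hnRNP proteins 20 rose and 4 fell, with CLK1 at 0.43 and HNRNPA0, a gene without introns, at -0.63. The median of these 42 was 0.125, and 0.269 under quantile normalization. Their median level lies at 10 to 12, where 27.2% of genes were higher and 44.9% lower.

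Of 41 translation factors, 22 rose and 9 fell, beside 27.2% and 44.9% of genes with a mean of 10 to 12. EIF5B, a large GTPase, rose by 0.58. EIF4E, the small cap-binding protein, read 9.71, 9.81 and 9.6 against 10.32 to 10.46, a difference of -0.69 ± 0.06, and its inhibitor EIF4EBP1 differed by -0.70. Cytoplasmic aminoacyl-tRNA synthetases, which charge tRNAs, rose for 15 of 18 genes, with none lower. Beside them, 42.3% of genes with a mean of 8 to 10 were higher and 22.2% lower. EPRS1 read 11.14, 11.23 and 10.98 against 10.41, 10.56 and 10.80, a rise of 0.52 ± 0.08, and TARS1, LARS1 and IARS1 rose by 0.50, 0.48 and 0.43.

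Of 28 proteasome subunits 10 were higher and 10 lower, beside 27.2% and 44.9% of genes with a mean of 10 to 12. PSMA3 and PSMA2, of the core ring, fell by 0.73 and 0.64 and SEM1, a very small lid subunit, by 0.59. PSMC3, an ATPase of the cap, rose by 0.50, and read 9.86, 10.08 and 9.86 against 9.19 to 9.66. Of 27 heat shock and chaperonin genes 15 rose and 5 fell, beside the same 27.2% and 44.9%. HSPA4 was at 0.42, CCT6A at 0.41 and the small co-chaperonin HSPE1 at -0.69. In the vacuolar proton pump, the membrane subunits ATP6V0B and ATP6V0C fell by 0.65 and 0.58 and the stalk subunit ATP6V1E1 rose by 0.44, with 5 higher and 6 lower of 15. Among 40 lysosome and autophagy genes 12 rose and 8 fell, among the latter GABARAP, a small ubiquitin-like autophagy protein, by 0.72. At a mean of 8 to 10, the range of the pump and of this list, 42.3% of genes were higher and 22.2% lower.

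Genes of acute responses moved in parts. Immediate early genes had 9 lower and 1 higher of 29, with IER5 and KLF2 at -0.67 and CD69 at -0.57, after JUND. MYC overlapped fully, with at most 11.67 in replicate 3 and 11.43 to 11.82 in the others. Its difference was -0.03 ± 0.07 (limma, adjusted p = 0.822), and 0.1 under quantile normalization. Among 22 targets of p53, 8 fell and 5 rose. At a mean of 8 to 10, the range of this list and of the immediate early genes, 22.2% of genes were lower and 42.3% higher. CCNG1 differed by -0.64, TRIAP1 by -0.54, BAX by -0.38 and CDKN1A, the cell cycle inhibitor p21, by -0.52, from 9.83 as the median of replicates 1 and 2 to 9.23 to 9.36. The list medians of p53 targets (0.009), of the NF-kB response (0.005, 2 higher and 4 lower of 21) and of hypoxia genes (-0.035, 4 higher and 6 lower of 23) lay close to that of all genes, and the first was -0.039 under quantile normalization. Hypoxia genes also have their median level at 8 to 10. The NF-kB list lies at 6 to 8, where 19.7% of genes were higher and 10.8% lower.

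Interferon-induced genes had 15 higher and 5 lower of 36, beside 19.7% and 10.8% of genes with a mean of 6 to 8. SAMD9, an antiviral factor, rose by 0.57 and DDX60, a helicase, by 0.50, whereas the small membrane proteins IFITM1 and IFITM3 fell by 0.54 and 0.49. IFITM1 read 9.09, 9.49 and 9.33 against 9.76 to 9.92. In the ATF4 and unfolded protein response list 8 of 38 rose and 6 fell, beside 42.3% and 22.2% of genes with a mean of 8 to 10. PSPH was at 0.36, ASNS at 0.28, CEBPB at -0.63 and ATF5 at -0.43. ASNS was not called without miR-100 replicate 3, at 0.17, or with the mean of its probe sets, at 0.12. DDIT4, an inhibitor of mTOR signalling, rose by 0.29.

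Among metabolic genes outside the mitochondrion, of 19 glycolysis genes 5 rose and none fell, with PFKM at 0.29 and ENO1 at 0.28. At a mean of 8 to 10, 42.3% of all genes were higher and 22.2% lower. The risers HK1 and PFKP, both at 0.22, were not called without miR-100 replicate 3 (0.13 each). LDHA differed by 0.06 ± 0.06 (limma, adjusted p = 0.593). Cholesterol synthesis had 6 higher and 5 lower of 19, beside the same 42.3% and 22.2%. SC5D and MSMO1, enzymes of the late pathway, fell by 0.73 and 0.63, and IDI1 by 0.34. HMGCS1, an enzyme early in the pathway, rose by 0.19. The late enzymes LSS, NSDHL and HSD17B7, chosen after their values were seen, rose by 0.24, 0.23 and 0.23, so the late pathway did not move as a whole. IDI1 was at -0.09 and not called with the mean of its probe sets, and HMGCS1 was not called without miR-99a replicate 3 (0.18), miR-100 replicate 1 (0.17) or miR-100 replicate 3 (0.15). SC5D read 9.33, 9.39 and 9.27 against 9.90 to 10.15.

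Markers of the cell type changed in part. Of 25 B-lineage genes 4 rose, 7 fell and 14 were not called, with a median of 0.004. Beside them, 27.2% of all genes with a mean of 10 to 12 were higher and 44.9% lower. The falls were CD9 (-0.73), VPREB3, a surrogate light chain partner (-0.59), SOX4 and CD79A, a signalling chain of the B-cell receptor (both -0.56), POU2AF1 (-0.38), TCF3 (-0.26) and IGLL1 (-0.18). The gap was narrow for CD9, whose 6 other arrays ran from 8.31 to 9.04 with the lowest in miR-100 replicate 1, and replicate 3 stood at 8.10, 8.24 and 8.09. The rises were MME, the CALLA antigen (0.27), IKZF1 (0.26), CD72 (0.24) and RAG1 (0.18). DNTT, the DNA polymerase of immature lymphocytes, was at 13.23, 13.16 and 13.19 against 12.94 to 13.20. S1PR4 read 8.81, 9.01 and 8.81 in replicate 3, while the control arrays, at 9.02 and 9.21, lay below the 9.39 to 9.79 of treated replicates 1 and 2. For SF3A2 the control arrays, at 8.74 and 8.67, also lay between 8.30 to 8.48 and 8.89 to 9.20.

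Markers of other cells gave little to describe. Of 17 T and NK cell genes, 8 erythroid and platelet genes and 12 fibroblast and epithelial genes, none was called, and list levels in each array stayed between 5.66 and 6.06. The median levels of these lists and of the myeloid list lie below 6. Only 0.846% of all genes in that range were called higher and 1.6% lower, so these counts say little about other cells. Of 14 myeloid genes, 13 were not called. The exception was AIF1, an actin-binding protein, which read 10.27, 10.44 and 10.36 in replicate 3 and 10.60, 10.83 and 10.99 in the others, a difference of -0.46 ± 0.07.

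Reported targets of the oligos had called rises only, while related lists moved both ways. Of 22 reported targets of the miR-99 family, 6 rose, none fell and 16 were not called, with a median of 0.013. Beside them, 19.7% of genes with a mean of 6 to 8 were higher and 10.8% lower. MTOR rose by 0.38 and ZZEF1, a large zinc finger protein, by 0.41, from 7.35 to between 7.68 and 7.83, and the remodeller SMARCA5 and AGO2 rose by 0.31 and 0.27. FKBP5 differed by 0.01 ± 0.07 (limma, adjusted p = 0.956). Among 38 genes of the PI3K and mTOR pathway 12 rose and 8 fell, beside the same 19.7% and 10.8%. The small Ragulator subunits LAMTOR3 and LAMTOR5 and the GTPase RHEB fell by 0.65, 0.64 and 0.58. Of 26 genes of the microRNA machinery, 13 rose and 2 fell, beside 42.3% and 22.2% of genes with a mean of 8 to 10. CNOT1, the scaffold of the deadenylase, rose by 0.47, and DROSHA, which cuts primary microRNAs, by 0.40. Every treated array had received an oligo, so these differences are between replicates of the same oligo.

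Zinc finger genes were the largest family. Of 425 genes with a ZNF number 148 rose, 29 fell and 248 were not called, with a median of 0.095. Beside them, 19.7% of genes with a mean of 6 to 8 were higher and 10.8% lower. ZNF107 read 9.69, 9.62 and 9.39 against 8.79 to 9.11, a rise of 0.63 ± 0.07, and ZNF638 rose by 0.59. ZNF706, a very short member, fell by 0.57. Host genes of small nucleolar RNAs had 3 falls and no rise among 7, beside 22.2% and 42.3% of genes with a mean of 8 to 10. ZFAS1 was at -0.69 and EPB41L4A-AS1 at -0.63.

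**Figure D4:**
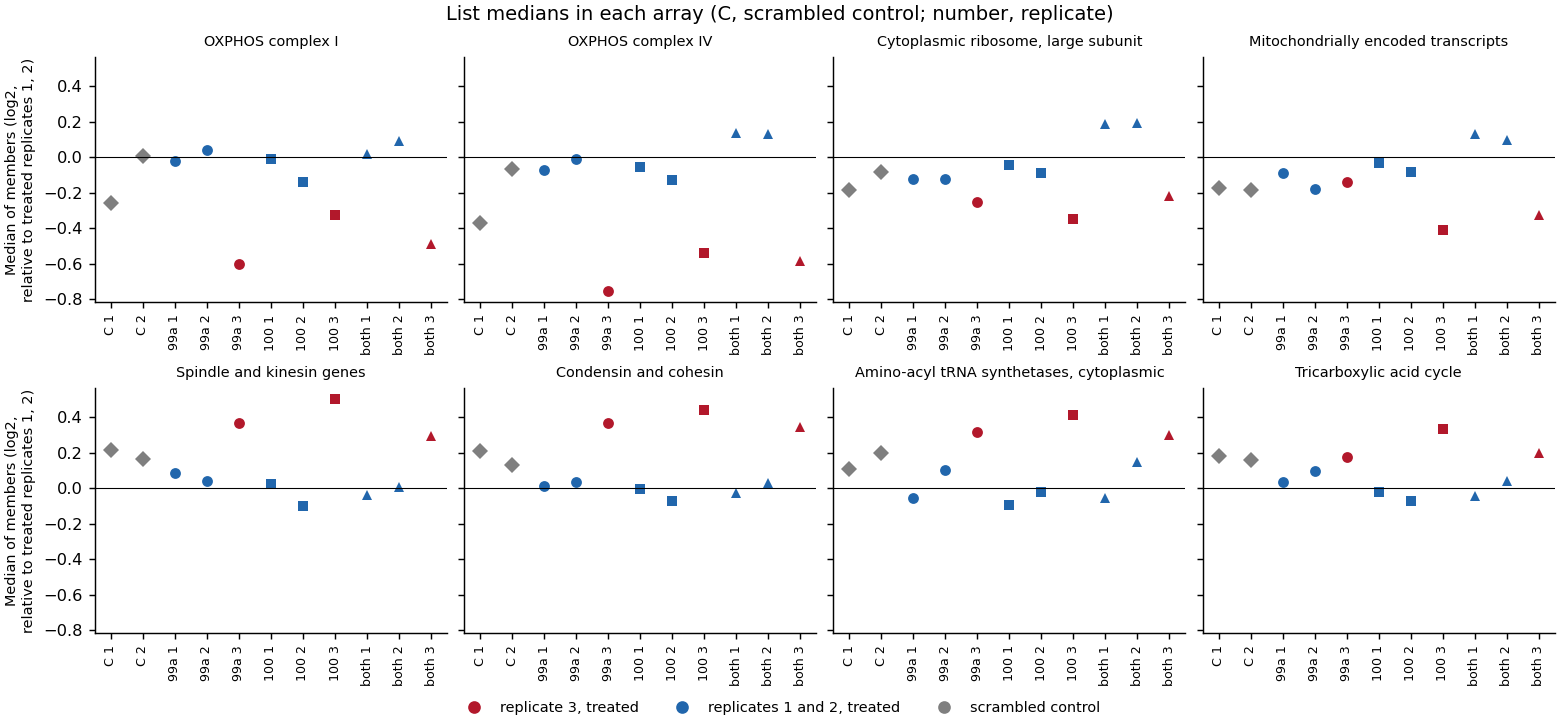
Each panel plots, for 1 gene list, the median over its members in every array in log2 units, relative to each gene's mean over the 6 treated arrays of replicates 1 and 2, with red for replicate 3, blue for replicates 1 and 2 and grey for the control. The red points of spindle genes stand at 0.294 to 0.502 and those of complex IV at -0.753 to -0.539, and control replicate 1 lies at 0.214 and -0.368. For mitochondrially encoded messages the miR-99a point of replicate 3 stands among the other arrays.

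The direction of change varied with the length of the gene on the genome. Gene span, from first to last base of the RefSeq gene on GRCh38.p14, was taken up after the values were seen. Of 5540 genes with a mean of 8 or more, the 1108 with the shortest span (up to 9.99 kb) were called lower in 53.8% and higher in 14.9%. Among the 1108 with the longest span (84.7 kb and more) 12.1% were lower and 54.7% higher. The median difference went from -0.213 to -0.017, 0.109, 0.166 and 0.2 over 5 equal bins of rising span. Spearman's rho across these genes was 0.384, and 0.394, 0.393 and 0.334 within miR-99a, miR-100 and the combination. For replicate 2 minus replicate 1 rho was 0.076. Genes share the arrays, so no p is given.

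**Figure D5:**
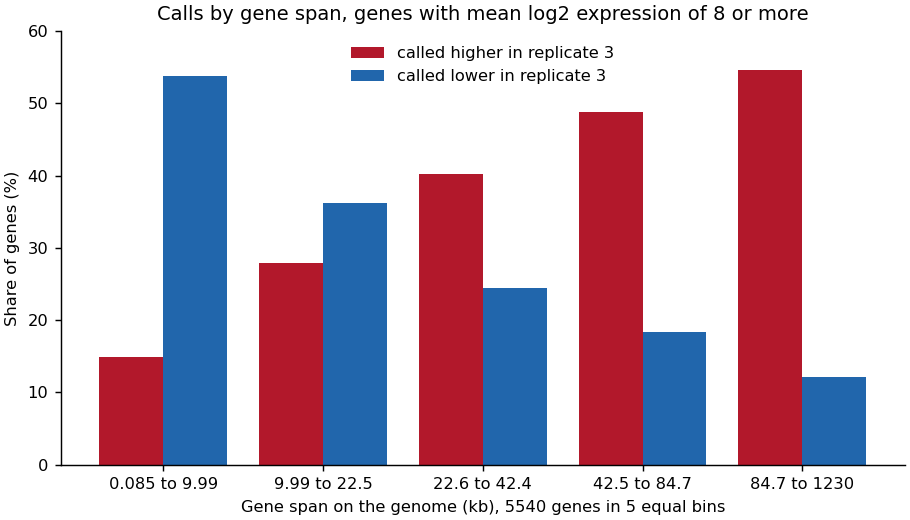
Bars give the share of genes called higher (red) and lower (blue) in replicate 3, in percent, over 5 equal bins of 5540 genes ordered by gene span in kb. The red bars climb from 14.9% to 54.7% and the blue bars drop from 53.8% to 12.1%.

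The relation held within ranges of expression. Each range was cut into 3 equal bins of span. Among genes with a mean of 8 to 9, the median difference was -0.003 in the bin of shortest genes and 0.205 in that of the longest. For means of 10 to 11 it was -0.321 and 0.137, and for 11 and above -0.336 and 0.005. Level itself moved with the difference. The median difference was 0.125 at mean levels of 8 to 10, -0.087 at 10 to 12 and -0.233 at 12 and above, with 7.35% called higher and 57.1% lower in the last. The base composition of the promoter showed less: from the lowest to the highest of 5 bins of GC content the share called higher went from 40.4% to 34.5% and the share called lower from 29.7% to 26.1%. Transcript and protein lengths were not used here, so the sizes named for single proteins above are background. A relation of the differences to protein size was not tested.

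Readings of the array's own controls bear on RNA quality and hybridization. The 3′ minus 5′ signal of the ACTB control, which grows as RNA degrades, was 2.80, 2.52 and 2.85 in replicate 3 and 2.45, 2.81 and 3.17 as the lowest, median and highest of the others, a difference of -0.09 (exact permutation test within treatments, 2-sided, p = 0.519). The name Cre is carried by probe sets near 13 and by others near 5, and the former were read. Other control names also go against their values, such as hum_alu at 6.07 to 7.4. The ACTB 3′ row had the range of gene probe sets of ACTB. The names of the ACTB 5′ and Dap rows were not checked in this way. The hybridization spikes BioB, BioC, BioD and Cre were within the range of the others in miR-99a replicate 3 and below it in the other replicate 3 arrays, as with BioB at 8.57, 7.81 and 8.06 against 8.20 to 8.65. Dap, a polyadenylated spike, read 8.84, 8.30 and 7.94 against 8.93, 9.26 and 9.56, a difference of -0.90 (exact permutation test, p = 0.037), the smallest p that the 27 arrangements allow, and 0.259 after adjustment over 7 readings. Control replicate 2, at 8.29, was as low. The part of these readings in the gene differences was not tested.

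Other probe sets of the same gene mostly read the same direction. For genes called higher 75.2% of 5748 other probe sets had a positive difference, and for genes called lower 75.0% of 2747 had a negative one. Of 2970 other probe sets at or above the median level for genes called higher, 89.7% had a positive difference, and of 1519 for genes called lower 80.6% had a negative one.

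Few genes separated replicates 1 and 2. The stress-responsive repressor BHLHE40 was 0.49 ± 0.08 higher in replicate 2 (adjusted p = 1.01e-05), the glycolytic ALDOC 0.43, the nucleolar RSL1D1 0.41, LINC02363 0.40 and SEPTIN6 0.39. CIP2A, an inhibitor of the phosphatase PP2A, was lower in replicate 2 with -0.52 ± 0.08 (adjusted p = 1.74e-06), as were VPS13A (-0.46), ZNF91 (-0.44), ASPM and MIDN (-0.43). BHLHE40, ALDOC, CIP2A and ZNF91 were not called between replicate 3 and the others, while VPS13A rose by 0.46 and MIDN fell by 0.45 (-0.19 and not called with the mean of its probe sets). SEPTIN6 and LINC02363 were also called higher in replicate 3, by 0.32 and 0.33, but were not called without miR-100 replicate 3 (0.27 and 0.21).

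The genes with the smallest p for a shift that differed between treatments were dim or moved mostly in 1 treatment. FOLR1, the folate receptor, shifted by -1.23 in miR-99a, -0.32 in miR-100 and -0.38 in the combination, TAPBP by -0.73, 0.02 and -0.15, and AP1S1 by -0.92, -0.09 and -0.23. CCDC160 and LINC01722, with levels near 5, shifted by 0.23, -0.05 and -0.55, and by -0.03, -0.36 and 0.36. Without miR-99a replicate 3, the difference of TAPBP was -0.06 and that of AP1S1 -0.16, and neither was called; TAPBP was at -0.1 and not called with the mean of its probe sets. None of the 5 passed the test between treatments after adjustment (limma, adjusted p = 0.566 for each).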

How the data were processed

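Total RNA of 11 Reh samples was hybridized to Affymetrix human arrays after one-cycle labelling, per the labels' protocols. The log2 values were used as deposited by the authors; the scale was read from their range (4.398 to 14.839), and how background was corrected and probes summarised and normalized is not given in the sources used here. The number of arrays limits the precision. Of 54675 probe sets, 41091 that list a single gene were used, and each of 19775 genes took its brightest probe set by the mean of the 11 arrays. Gene IDs of 41037 matched the RefSeq table.

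The difference was fitted with limma 3.58.1 in R 4.3.3 on the 9 treated arrays (treatment plus a replicate 3 term, lmFit and eBayes), with Benjamini-Hochberg adjustment over all genes and a threshold of 0.05. The residual degrees of freedom were 5 and the prior 42.21. Other fits used the replicate number as a block, or a term for each treatment and replicate class. Named genes were the 12 largest called rises and falls at or above the median level without overlap, 5 each way for replicate 2 minus 1, 5 for the difference between treatments, up to 4 called of each list, and a set list of genes. Genes named beside them as opposite movers in a complex, or to complete a list (PTTG1, CHD2, COX4I1, SLU7, POU2AF1, TCF3, IGLL1 and MME among them), were chosen after their values were seen. The members and the 48 lists were chosen with earlier results of these data known. Some control probe set names of the table go against their values, and the name Cre stands on bright and on dim probe sets. The ACTB, Bio, Dap and bright Cre controls were read.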

Additional observations from a re-analysis of the deposited data

Results flagged for a closer look

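Among the 6 treated arrays of replicates 1 and 2, the gap of 1 array to the rest passed Dixon's 95% critical value for 8 of the 225 genes named. Chance gives about 1 in 20 groups tested. In miR-100 replicate 2 the low reading was 9.42 for MED21, 8.68 for MRPS33, 7.78 for DNAJB4, 9.88 for TRIAP1, 9.4 for NUP107 and 5.93 for NKG7. In miR-100 replicate 1, CD9 was low at 8.31. In the combination replicate 1, CD69 was high at 8.49. NKG7 was not called between replicate 3 and the others. For the other 7 genes, which were called, the replicate 3 arrays lay outside the range of these 6 arrays with the outlying one included.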

How the results depend on the processing

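With the replicate number as a block, replicate 3 minus the mean of the others gave 3503 genes higher and 2483 lower; this block moved neither count by over 1.5 times. Leaving out each array in turn gave 1967 to 3556 higher and 1754 to 2647 lower, with the fewest rises without miR-100 replicate 3, where 42.6% of calls were higher against 58.4%. Ordinary least squares, added after the data were seen, gave 1535 higher and 1464 lower, and quantile normalization 3151 and 3019. The 31 calls between replicates 1 and 2 became 5 under quantile normalization, 0 with the mean of all probe sets of a gene and 59 over all 11 arrays; with each array left out they ran from 4 to 130, at 4 without miR-99a replicate 1, 5 without miR-99a replicate 2, 15 without miR-100 replicate 1 and 130 without miR-100 replicate 2.

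Of the 225 genes named, calls were lost for 35 under ordinary least squares, 12 with the mean of all probe sets, 9 without miR-100 replicate 3, 4 without miR-99a replicate 3, 3 under quantile normalization and at most 2 under each other setting. The sign of replicate 3 minus the others turned for 6 of the genes named, none of them called. CIP2A was -0.04 and MYC 0.1 under quantile normalization, and FKBP5 was -0.04 with the mean of all probe sets. With each array left out, CIP2A ran from -0.09 to 0.18, MYC from -0.16 to 0.06, FKBP5 from -0.05 to 0.07, LINC01722 from -0.2 to 0.16, CCDC160 from -0.3 to 0.09 and PF4 from -0.08 to 0.19. The cause of these changes was not tested.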

Other observations

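Probe sets that list no gene were set beside those that do, by level and by whether all replicate 3 arrays lay outside the other treated arrays. With a mean of 6 to 7, 24.8% of 2444 probe sets with no gene were higher in replicate 3 without overlap, and 12.9% of 9085 with a gene. With a mean of 7 to 8 the shares were 37.9% of 809 and 29.6% of 5318, and with 8 to 10 they were 38.8% of 451 and 34.6% of 6234. The shares lower without overlap at 6 to 7 were 6.26% and 7.77%. By RefSeq gene type, among genes with a mean of 8 or more, 26.6% of 64 long non-coding RNAs were called higher and 48.4% lower, and 44.4% of 36 transcribed pseudogenes were higher and 16.7% lower, beside 37.4% and 28.8% of 5431 protein-coding genes. These comparisons were chosen after the data were seen.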
